A study of Mus musculus with 9 samples.

Results

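The nuclear genome encodes most of the proteins of oxidative phosphorylation, and the genes described here are the rows of an expression table whose symbols start with Nduf, Uqcr, Atp5, Sdha, Sdhb, Sdhc, Sdhd, Cox4, Cox5, Cox6, Cox7 or Cox8. These prefixes took in 89 of the 15434 genes of the table. By name, 76 are subunits of the finished complexes, 11 are assembly factors and 2, Cox7a2l and Atp5s, were set apart as other genes. Complex I accounts for 35 of them, 7 core and 28 accessory subunits, complex II for 4, complex III for 8, complex IV for 14 and complex V for 15. Ndufa4 was kept with complex I by its symbol, although its protein is now placed in complex IV.

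In oxidative phosphorylation, complexes I and II pass electrons from NADH and succinate to ubiquinone, complex III passes them on to cytochrome c, and complex IV, cytochrome c oxidase, reduces oxygen to water. Complexes I, III and IV pump protons across the inner mitochondrial membrane, and complex V, the ATP synthase, uses the gradient to make ATP. The core subunits carry the redox centres or the rotary catalysis, while accessory or supernumerary subunits surround them. In macrophages the balance of this pathway and glycolysis is known to shift with activation state.

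Libraries came from macrophages of 3 organs of C57BL/6J mice, testis, epididymis (the duct in which sperm mature) and brain, whose macrophages, the microglia, are named as such in the library titles, with 3 libraries per organ. The cells were neither treated nor cultured, and no allele or agent beyond the strain background is given. Live cells (DAPI-) with CD45, CD11b and F4/80 and without Ly6C and CD11c on their surface were sorted. Each organ carries a single mouse number, 1 for testis, 2 for epididymis and 3 for brain, so organ and mouse cannot be told apart. The labels do not say that the 3 libraries of an organ came from separate animals, and p-values then measure only the spread between libraries, which may be technical. The protocol states that testis and epididymis suspensions were pooled in a separate tube, and its wording does not settle whether the organs were mixed at that step. Values per library are the authors' normalised reads per gene, listed for libraries 1, 2 and 3 of an organ in turn. Levels of different genes are set side by side per kilobase of the principal annotated transcript. Values without this scaling were used for sums over genes, to pick genes to name and to give the lowest level of called genes.

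Libraries held 2727092 to 4458688 reads, and 1 read was worth 0.808 to 1.11 normalised reads. Markers of macrophages and of the sort gate (14 genes) summed to 68.8 to 78.3 of every 10000 normalised reads in testis, 126 to 133 in epididymal and 178 to 190.1 in brain libraries, and none of the 14 was at 0 in all libraries of an organ. The genes did not all follow the sum. For testis over brain 7 log2 folds were positive and 7 negative, and for testis over epididymis 1 and 13. Against brain, Lyz2 and Ptprc were called higher in testis and Mertk, Cx3cr1, Itgam and Csf1r lower (limma, adjusted p under 0.05). Microglia markers (9 genes) summed to 1.99 to 3.20, 14.1 to 19.4 and 57.2 to 66.0 per 10000 in the same order of organs. Some libraries stood apart from the others of their organ. Of the 84 tested genes, 68 were above the mean of the other testis libraries in testis library 3 and 18 in testis library 1, 60 were above in epididymal library 1, and 68 were above in brain library 3 and 27 in brain library 2. Among all 11766 tested genes the counts were 6471, 5350, 6094, 6364 and 5556 in the same order. Among the 366 with a longest transcript of 600 to 1000 bases they were 250, 116, 222, 253 and 101. For the 29 oxidative phosphorylation genes of that length they were 25, 5, 23, 26 and 7. Calls of oxidative phosphorylation genes that change without 1 of these libraries are given with and without it. Calls of all other genes are given for the 9 libraries together, and how they change without 1 library is not given.

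Promoters of these genes are known for binding sites of nuclear respiratory factor 1 (NRF1), of ETS factors such as GABP, of YY1, of Sp and KLF factors and of oestrogen-related receptors (ERR). Windows of 300 bases, 250 before and 50 after the annotated start, were found in RefSeq (GRCm38.p6) for 77 of the 89 genes, 82 windows in all. Among the genes with no window were Ndufs1, Ndufa2, Sdhc, Uqcrb, Uqcrc2, Uqcrq, Cox4i1, Cox6a2, Cox6c, Atp5a1 and Ndufaf6. The letters searched on both strands were GCATGCGC for NRF1, CCGGAAG for ETS, AAGATGGC for YY1, GGGCGG for Sp and KLF, and AAGGTCA for ERR. The 250 bases before the start are shown for 4 genes that were higher in testis macrophages than in microglia: Atp5l and Atp5k, subunits g and e of the ATP synthase, Cox6b1 of complex IV, and the assembly factor Ndufaf8. They are read 5′ to 3′ on the strand of the gene, and capitals mark the matches. The windows lie at chr9:44920743-44920992, minus strand, at chr5:108434400-108434649, minus strand, at chr7:30626115-30626364, minus strand, and at chr11:120098684-120098933, plus strand.
Atp5l: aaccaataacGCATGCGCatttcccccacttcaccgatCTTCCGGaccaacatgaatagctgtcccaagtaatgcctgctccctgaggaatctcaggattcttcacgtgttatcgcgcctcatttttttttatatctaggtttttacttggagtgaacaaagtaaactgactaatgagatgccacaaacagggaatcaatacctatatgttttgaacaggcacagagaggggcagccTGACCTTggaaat
Atp5k: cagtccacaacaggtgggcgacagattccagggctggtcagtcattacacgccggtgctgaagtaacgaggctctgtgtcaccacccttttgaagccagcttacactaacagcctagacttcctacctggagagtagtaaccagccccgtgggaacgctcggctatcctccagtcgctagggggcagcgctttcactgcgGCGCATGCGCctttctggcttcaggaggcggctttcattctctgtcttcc
Cox6b1: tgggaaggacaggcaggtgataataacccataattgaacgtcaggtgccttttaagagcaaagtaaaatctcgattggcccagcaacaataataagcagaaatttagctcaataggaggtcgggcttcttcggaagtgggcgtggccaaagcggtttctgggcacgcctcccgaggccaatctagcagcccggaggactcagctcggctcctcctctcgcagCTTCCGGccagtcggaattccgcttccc
Ndufaf8: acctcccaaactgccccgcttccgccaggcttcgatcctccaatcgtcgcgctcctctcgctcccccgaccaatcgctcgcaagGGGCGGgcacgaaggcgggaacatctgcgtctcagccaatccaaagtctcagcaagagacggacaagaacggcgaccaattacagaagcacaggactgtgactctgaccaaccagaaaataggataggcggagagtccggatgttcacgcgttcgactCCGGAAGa

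In Atp5l the capitals are an NRF1, an ETS and an ERR match, with the ERR match starting 13 bases before the start. In Atp5k an NRF1 match on each strand overlap in a single palindrome about 50 bases before the start. Cox6b1 has an ETS match and Ndufaf8 an Sp/KLF and an ETS match, the ETS match starting 8 bases before its start. NRF1 letters were in 14.6% of the 82 windows, against 2.71% of the 32851 windows of all genes and 4.89% of the 11623 windows of tested genes. ETS letters were in 25.6% of the windows, against 8.86% and 16.7%, and YY1 letters in 12.2%, against 2.75% and 4.30%. ERR letters were in 9.76%, against 4.72% and 3.28%, and Sp/KLF letters in 47.6%, against 35.7% and 59.2%. Any of the NRF1, ETS or YY1 letters stood in 43.9% of the windows of oxidative phosphorylation genes, 13.3% of all windows and 23.7% of those of tested genes. Matches to NRF1 on both strands overlap at a palindrome and count once per window. Among the 22 windows of genes called higher in testis macrophages than in microglia, 40.9% had ETS, 18.2% NRF1, 13.6% YY1, 18.2% ERR and 27.3% Sp/KLF letters. Among the 56 windows of the other tested oxidative phosphorylation genes the shares were 19.6%, 14.3%, 12.5%, 5.36% and 51.8% in the same order, with no test of the differences. A match is a run of letters and not a shown binding site.

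Of the 89 genes, 84 reached a value of 10 in 3 or more libraries and were tested, among them 72 subunits. The 5 left untested were at or near 0 in most libraries. Sdhd, a membrane anchor of complex II, had 0, 9.69 and 5.13 in testis macrophages, 0, 0 and 0 in epididymal macrophages and 0, 5.57 and 0 in brain microglia. The muscle isoform Cox6a2 had at most 24.5 in any library, and Cox6b2 and Cox7b2, isoforms known from testis, at most 35.6 and 24.2. Atp5s had 134, 21.0 and 0 in testis macrophages and at most 7.80 elsewhere.

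Per kilobase of transcript and averaged over the 9 libraries, Atp5l stood first with 6098 normalised reads, followed by Cox6c with 1811 and Cox6b1 with 1568. Sdhd was the lowest subunit with 1.84. Medians per kilobase in complex V were 719 in testis macrophages, 237 in epididymal macrophages and 277 in microglia, and in complex IV 594, 410.0 and 260.4 in the same order. Complex I core subunits had medians of 62.1, 41.4 and 69.5 and complex I accessory subunits 370.4, 228 and 175. These are levels, and the annotated transcript used for the length need not be the one expressed.

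**Figure D1:**
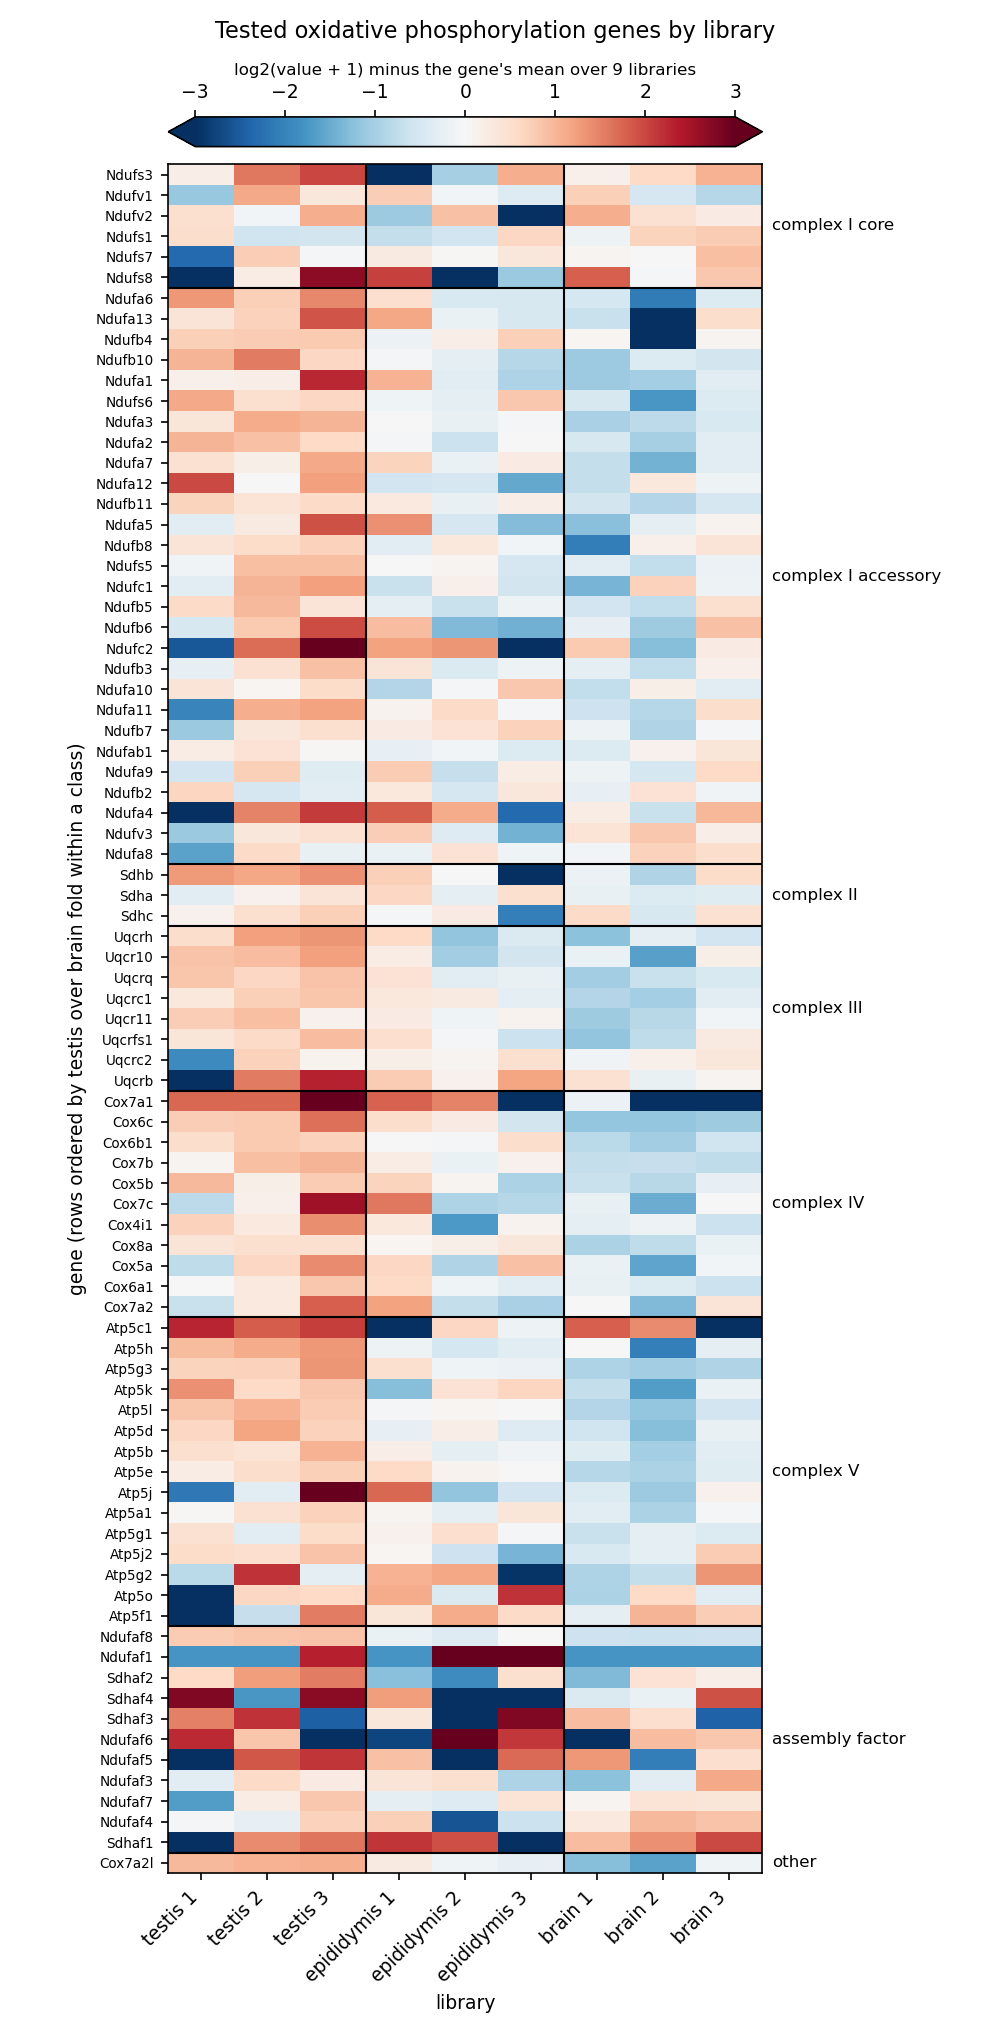
Level of the tested genes other than 1 not shown (down the page, grouped by complex) in each of the 9 libraries (across), as log2(value + 1) minus the mean of that gene over the libraries. Red is above and blue below the mean of the gene, most genes of complex III, IV and V and most accessory genes of complex I are red in testis library 3 and blue in brain libraries 1 and 2, and the complex I core genes shown have no common pattern.

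Testis macrophages against microglia gave the most calls. Of the 84 tested genes, 23 rose in testis macrophages (27.4%) and 0 fell, against 6.82% called higher and 4.83% called lower among all 11766 tested genes (limma, Benjamini-Hochberg adjusted p under 0.05). For 37 of the 84 all 3 testis libraries lay above all 3 brain libraries, and for 0 below, against 15.9% above and 14.9% below among all tested genes. The median log2 fold on log2(value + 1) was 0.96 for the 84 and -0.07 for all tested genes. At an unadjusted p under 0.05, 35 of the 84 were higher and 0 lower, and neither edgeR (21 higher) nor DESeq2 (26 higher) called any lower. Accessory subunits of complex I (7 of 28), complex III (3 of 8), complex IV (4 of 11) and complex V (7 of 15) were among those that rose, with Ndufaf8 and Cox7a2l, and 0 of the 7 core subunits of complex I and 0 of the 3 tested subunits of complex II, which had 0 at an unadjusted p under 0.05 and 0 by edgeR and DESeq2. The lowest mean level of a called gene over the 9 libraries was 144.6, and 55 of the 84 genes were at or above it. Median principal transcripts were 1623 bases in core subunits, 2900 in tested complex II subunits and 747.5 in complex I accessory subunits. The part of level and length in this split was not tested. Exons of 31 of the 84 genes, 7 of the 23 among them, overlap those of another gene, and since the library kit does not mark strand, reads of such pairs cannot be told apart. In bulk samples, fewer cells of a type and less RNA per cell cannot be told apart. The count was 15 without testis library 3, brain library 1 or brain library 2 and 8 without the variance trend of the limma fit, and 13 of the 23 genes passed with each of the 9 libraries left out in turn: Ndufa2, Ndufa3, Ndufa6, Uqcrq, Cox6b1, Cox6c, Cox7b, Atp5b, Atp5g3, Atp5h, Atp5l, Ndufaf8 and Cox7a2l.

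Transcript length moved with this difference. The 89 genes have short transcripts, with a median principal transcript of 908 bases against 3087 bases for all tested genes with a length, and among all tested genes those with shorter transcripts had the higher median folds of testis macrophages over microglia. With the length trend of each library removed, the median log2 fold of the 84 genes was 0.0033 and 5 of them were called, against 6.15% called higher among the 11324 genes with a length. These 5 were Cox6c, Cox7a2l, Uqcrq and Atp5b, and Atp5a1, which was not among the 23. The correction also takes away any difference that genes of the same length share, so length and function cannot be told apart here, and values by length class are given further on.

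**Figure D2:**
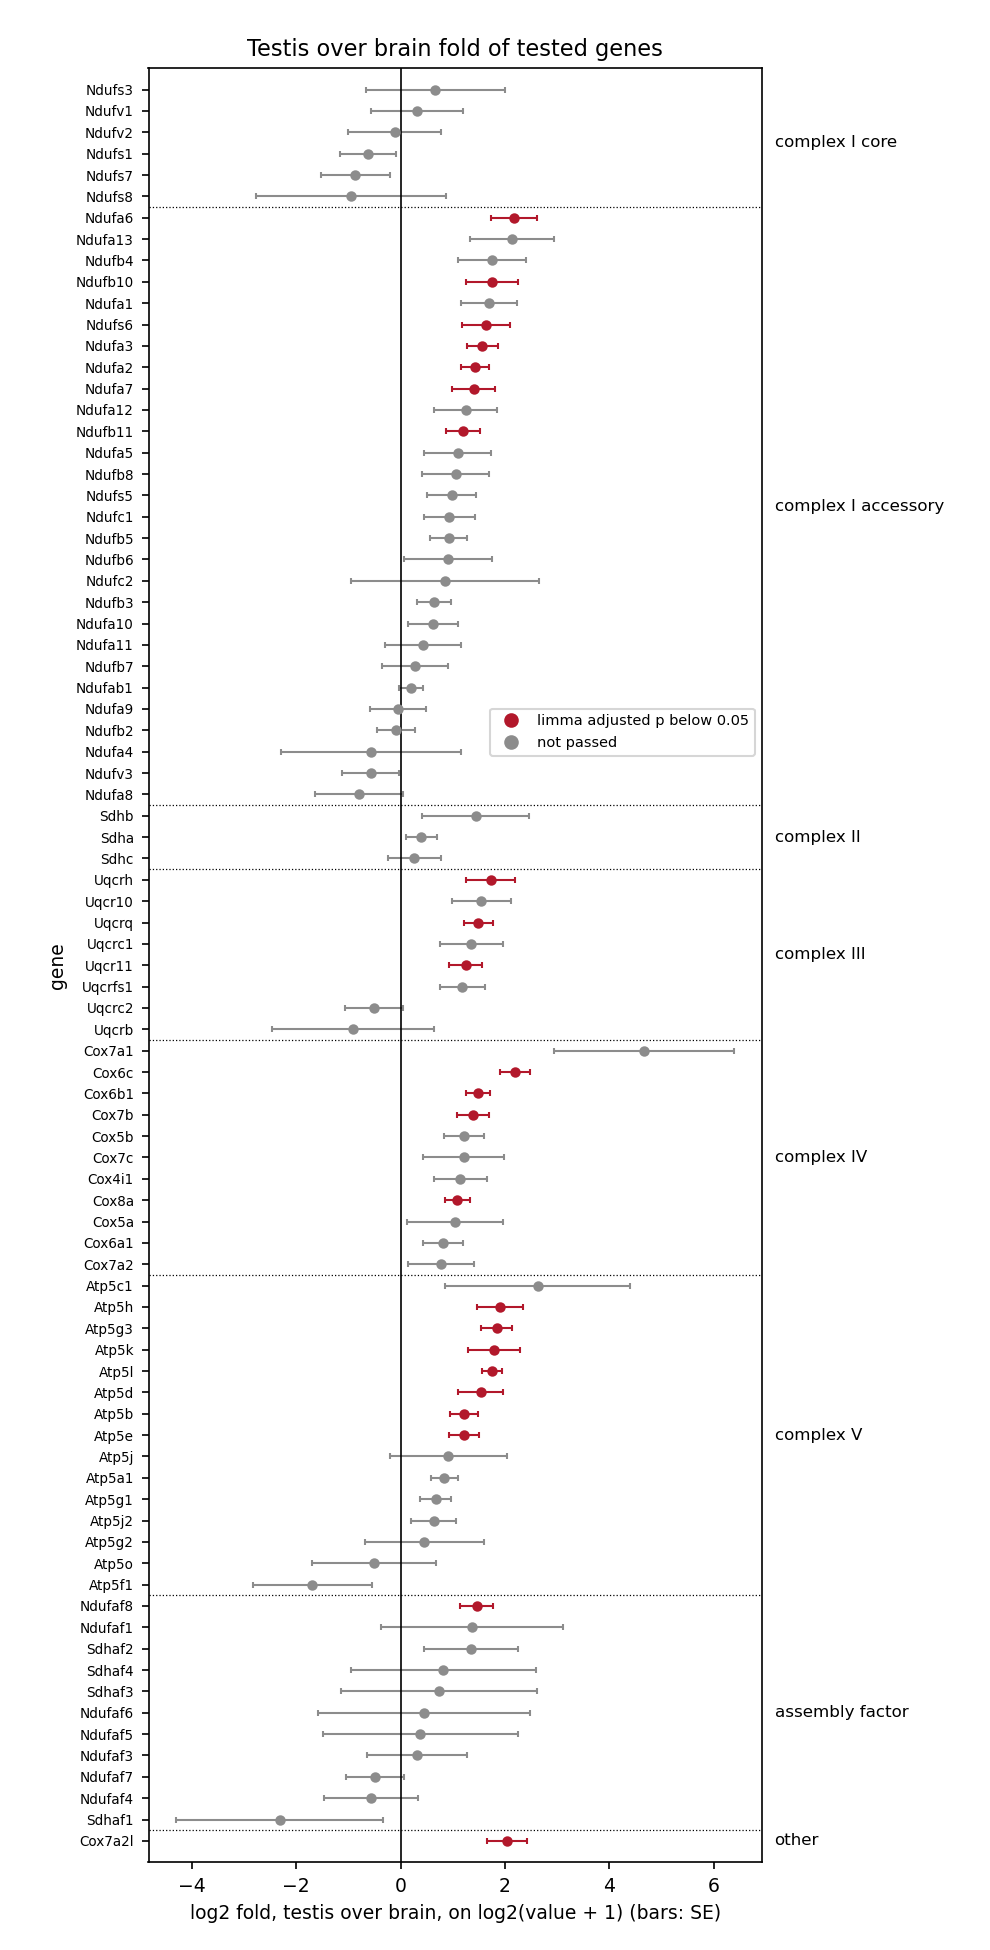
Log2 fold of testis macrophages over brain microglia on log2(value + 1) for the tested genes other than 1 not shown, grouped by complex, with the standard error of the limma fit as bars (3 libraries per organ). The 23 genes with an adjusted p under 0.05 are red and all lie above 0.

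In complex I, the core subunits carry the flavin and the iron-sulphur clusters. Their median log2 fold of testis macrophages over microglia was -0.11, and 3 of 7 folds were positive. Ndufv1, which binds NADH and the flavin, had 23.8, 119.6 and 68.4 in testis macrophages, 90.9, 50.7 and 41.0 in epididymal macrophages and 89.3, 37.9 and 29.3 in brain microglia. The organs overlapped, with a log2 fold of 0.32 ± 0.88 over microglia (limma adjusted p = 0.882). Ndufs8, an iron-sulphur subunit, was at 0 in testis library 1 and at 58.1 in testis library 3, so its organ means rest on few reads.

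Accessory subunits of complex I had a median log2 fold of 0.96 over microglia, with 23 of 28 folds positive. Ndufa6, a protein of the LYR family, had 863, 575 and 952 in testis macrophages, 495, 255 and 248 in epididymal macrophages and 241, 80.3 and 262 in brain microglia. Every testis value lay above every other, and the log2 fold over microglia was 2.17 ± 0.44 (limma adjusted p = 0.0039). Ndufa2, an accessory subunit of the arm that protrudes into the matrix, had 1329, 1199.7 and 1000.2 in testis macrophages, 633, 420.2 and 658 in epididymal macrophages and 472, 331 and 518 in brain microglia. The 3 testis values exceeded all 6 others, with a log2 fold of 1.43 ± 0.27 over microglia (limma adjusted p = 0.00217). Ndufa3, a membrane-arm accessory subunit, had 504, 858 and 797 in testis macrophages, 390.0, 339.5 and 377 in epididymal macrophages and 199, 229.6 and 287 in brain microglia. All testis values exceeded all others, and the log2 fold over microglia was 1.57 ± 0.30 (limma adjusted p = 0.00236). The folds of Ndufa6, Ndufa2 and Ndufa3 were 0.77 ± 0.36, -0.0083 ± 0.34 and 0.015 ± 0.34 with the length trend removed. None of the 3 passed then (limma adjusted p = 0.219, 0.993 and 0.989). The exons of Ndufa2 overlap those of Tmco6 and the exons of Ndufa3 those of Tfpt on the opposite strand, so their reads cannot be told apart.

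The calls of Ndufb10 and Ndufs6 depended on the libraries used. Ndufb10, a membrane-arm subunit, had 244, 359 and 187 in testis macrophages, 116, 100.4 and 65.8 in epididymal macrophages and 56.5, 90.3 and 81.8 in brain microglia. Its testis values exceeded all others. The log2 fold over microglia was 1.75 ± 0.50 (limma adjusted p = 0.0342), and the call was lost without any 1 of the 3 testis or 3 brain libraries. Ndufs6, a zinc-binding accessory subunit whose exons overlap those of Mrpl36, had 456, 288 and 318 in testis macrophages, 187, 167 and 361 in epididymal macrophages and 147, 60.2 and 155 in brain microglia. Testis and brain values did not overlap, and its log2 fold was 1.64 ± 0.46 (limma adjusted p = 0.03), lost without brain library 2 or any testis library. The folds of Ndufb10 and Ndufs6 were 0.59 ± 0.55 and 0.19 ± 0.50 with the length trend removed (limma adjusted p = 0.602 and 0.883). The accessory subunits Ndufa7 and Ndufb11 were also called, with log2 folds of 1.40 ± 0.42 and 1.19 ± 0.32 (limma adjusted p = 0.0407 and 0.0256). Ndufa7 lost the call without testis library 1 or 3 or brain library 1 or 2, and Ndufb11 without any 1 of the testis or brain libraries. With the length trend removed the fold of Ndufa7 turned to -0.13 ± 0.39 and that of Ndufb11 was 0.29 ± 0.38 (limma adjusted p = 0.899 and 0.725). Ndufab1, the mitochondrial acyl carrier protein, had 1547, 1792 and 1366 in testis macrophages, 1123, 1251 and 999 in epididymal macrophages and 1000.1, 1446 and 1712 in brain microglia. Its values overlapped between testis macrophages and microglia, at a log2 fold of 0.20 ± 0.23 (limma adjusted p = 0.665). Ndufa4 was at 0 in testis library 1 and at 112 in testis library 3, and did not pass in any comparison.

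Complex II is the enzyme shared by the respiratory chain and the tricarboxylic acid cycle, and none of its tested subunits passed. Sdha, the flavoprotein, had 419, 581 and 684 in testis macrophages, 809, 434 and 733 in epididymal macrophages and 452, 393 and 411 in brain microglia. The organs overlapped, and the log2 fold of testis macrophages over microglia was 0.40 ± 0.29 (limma adjusted p = 0.468). Sdhb, the iron-sulphur subunit, had 164, 152 and 174 in testis macrophages, 110.0, 67.5 and 3.23 in epididymal macrophages and 59.2, 35.7 and 98.7 in brain microglia. Its 3 testis values exceeded all others and the log2 fold over microglia was 1.44 ± 1.02 (limma adjusted p = 0.441). Sdhc, a haem-binding membrane anchor, had 343, 438 and 519.8 in testis macrophages, 307, 371 and 75.5 in epididymal macrophages and 465, 224 and 429 in brain microglia, with overlap between the organs.

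In complex III, Uqcrh, Uqcrq and Uqcr11 rose in testis macrophages against microglia. Uqcrq, a small ubiquinone-binding subunit, had 941, 807 and 957 in testis macrophages, 715, 416 and 449.6 in epididymal macrophages and 254, 332 and 385 in brain microglia. The 3 testis values exceeded all 6 others, with a log2 fold over microglia of 1.49 ± 0.28 (limma adjusted p = 0.00226), and with the length trend removed of 1.14 ± 0.31 (limma adjusted p = 0.0229). Uqcrh, the acidic hinge protein next to cytochrome c1, had 314, 511 and 540.3 in testis macrophages, 326, 93.8 and 161 in epididymal macrophages and 92.0, 178 and 144 in brain microglia. Testis and brain values did not overlap, and the log2 fold was 1.72 ± 0.47 (limma adjusted p = 0.0252), a call lost without testis library 2 or 3 or brain library 1 or 3. The fold of Uqcrh was 0.24 ± 0.48 with the length trend removed (limma adjusted p = 0.84). Uqcr11, a small complex III subunit, had 758, 846 and 497 in testis macrophages, 538, 416 and 492 in epididymal macrophages and 218, 253 and 428 in brain microglia. Its log2 fold over microglia of 1.25 ± 0.32 (limma adjusted p = 0.0174) was lost without testis library 1 or 2 or brain library 1 or 2, and it turned to -0.47 ± 0.40 with the length trend removed (limma adjusted p = 0.56). The Rieske iron-sulphur protein Uqcrfs1 and the core protein Uqcrc1 did not pass, at log2 folds of 1.19 ± 0.43 and 1.36 ± 0.60 (limma adjusted p = 0.1 and 0.183). For Uqcrc1 too, the 3 testis values lay above the 3 brain values.

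Complex IV held the gene with the steepest called rise. Cox6c, a nuclear-encoded subunit of cytochrome c oxidase on chromosome 15 (35925886 to 35938246, GRCm38), had 1799, 1849 and 3374 in testis macrophages, 1540.0, 1265 and 733 in epididymal macrophages and 476, 483 and 508 in brain microglia. Its testis values exceeded all epididymal values and its epididymal values all brain values. The log2 fold over microglia was 2.19 ± 0.29 in testis macrophages (limma adjusted p = 0.000124), and 1.04 ± 0.26 with the length trend removed (limma adjusted p = 0.0144). Of the called genes followed through 22 alternatives, it and Cox7a2l kept this call in all 22. Exons of Cox6c overlap those of Vps13b on the opposite strand. Cox6b1, which faces the intermembrane space, had 1267, 1517 and 1435 in testis macrophages, 871, 851 and 1262 in epididymal macrophages and 500.0, 429 and 586 in brain microglia. Every testis value exceeded every other and brain values lay below all others, with a log2 fold of testis macrophages over microglia of 1.48 ± 0.23 (limma adjusted p = 0.000499). With the length trend removed this fold was 0.13 ± 0.32 (limma adjusted p = 0.872).

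Cox7b, a small membrane subunit of complex IV, had 415, 727 and 793 in testis macrophages, 457, 342 and 429 in epididymal macrophages and 239.5, 241 and 229 in brain microglia. Brain values lay below all others, and the log2 fold of testis macrophages over microglia was 1.39 ± 0.31 (limma adjusted p = 0.00734), or 0.60 ± 0.32 with the length trend removed (limma adjusted p = 0.298). Cox8a, the only Cox8 isoform in the table, had 931, 999 and 985 in testis macrophages, 740.0, 799 and 899 in epididymal macrophages and 369, 417 and 616 in brain microglia. Its log2 fold over microglia of 1.09 ± 0.24 (limma adjusted p = 0.0083) was lost without brain library 1 and turned to -0.39 ± 0.33 with the length trend removed (limma adjusted p = 0.545). Cox4i1, the ubiquitous form of subunit IV, had 372, 278 and 598 in testis macrophages, 285, 68.5 and 247 in epididymal macrophages and 189, 204 and 146 in brain microglia. Testis and brain values did not overlap, yet its log2 fold of 1.15 ± 0.50 did not pass (limma adjusted p = 0.179).

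Among the tissue isoforms, Cox7a1, known from heart and skeletal muscle, had 33.1, 33.1 and 129 in testis macrophages, 34.5, 28.1 and 0 in epididymal macrophages and 8.20, 0 and 0 in brain microglia. All testis values lay above the brain values, at a log2 fold of 4.67 ± 1.72 that did not pass (limma adjusted p = 0.103). The ubiquitous counterpart Cox7a2 had 248, 487 and 1376 in testis macrophages, 914, 239 and 201 in epididymal macrophages and 399.8, 158 and 518 in brain microglia, and testis library 3 and epididymal library 1 stood above the others of their organ. The ubiquitous Cox6a1 had 222, 269.8 and 385 in testis macrophages, 329, 199 and 176 in epididymal macrophages and 188, 164 and 139 in brain microglia, with no overlap between testis and brain and a log2 fold over microglia of 0.81 ± 0.39 (limma adjusted p = 0.224).

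Complex V held 7 of the called genes. Atp5l, subunit g of the ATP synthase, which sits with subunit e where the enzyme forms dimers, lies on chromosome 9 (44912557 to 44920742, GRCm38). It had 5182, 6062 and 4947 in testis macrophages, 2847, 3048 and 2911 in epididymal macrophages and 1584, 1309.8 and 1965 in brain microglia. The 3 organs did not overlap at all, and the means were 5397 ± 588, 2936 ± 103 and 1619.6 ± 329 (SD, n = 3 each). The log2 fold of testis macrophages over microglia was 1.75 ± 0.19 (limma adjusted p = 1.39e-05), and 0.26 ± 0.27 with the length trend removed (limma adjusted p = 0.654). Exons of Atp5l overlap those of Gm30934 on the opposite strand. Atp5k, subunit e, had 814, 477 and 553 in testis macrophages, 128, 426 and 495 in epididymal macrophages and 191, 98.1 and 272 in brain microglia. Testis and brain values did not overlap, with a log2 fold of 1.79 ± 0.49 (limma adjusted p = 0.0269) that was lost without testis library 1 or 3 or brain library 1 or 2 and was -0.13 ± 0.58 with the length trend removed (limma adjusted p = 0.938).

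The catalytic head is built of the alpha subunit, encoded by Atp5a1, and the beta subunit, encoded by Atp5b. Atp5b had 1206, 1149 and 1779.9 in testis macrophages, 987, 699.7 and 805 in epididymal macrophages and 669, 427 and 684 in brain microglia. All testis values exceeded all others, and the log2 fold over microglia was 1.22 ± 0.26 (limma adjusted p = 0.00636), or 1.13 ± 0.26 with the length trend removed (limma adjusted p = 0.00839). Atp5a1 had 1429, 1886 and 2222 in testis macrophages, 1454, 1152 and 1771 in epididymal macrophages and 1101, 711 and 1336 in brain microglia. Its testis values lay above its brain values, and its log2 fold of 0.84 ± 0.26 did not pass (limma adjusted p = 0.0513), while with the length trend removed it was 0.89 ± 0.26 (limma adjusted p = 0.0341). The central stalk subunits delta and epsilon, Atp5d and Atp5e, were called at log2 folds of 1.54 ± 0.43 and 1.21 ± 0.29 (limma adjusted p = 0.0297 and 0.0119). Both calls were lost without testis library 3, brain library 1 or brain library 2, and that of Atp5d also without testis library 2. With the length trend removed the fold of Atp5d was 1.11 ± 0.43 and that of Atp5e turned to -0.57 ± 0.30 (limma adjusted p = 0.126 and 0.293). Atp5h, subunit d of the peripheral stalk, had 602, 675 and 779.7 in testis macrophages, 282, 219 and 246 in epididymal macrophages and 311, 74.7 and 260.4 in brain microglia. Its testis values stood apart from both other organs, at a log2 fold over microglia of 1.90 ± 0.44 (limma adjusted p = 0.0104), or 0.65 ± 0.38 with the length trend removed (limma adjusted p = 0.35).

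The membrane ring of subunit c is encoded by Atp5g1, Atp5g2 and Atp5g3, which give the same mature protein. Atp5g3 had 651, 662 and 1024 in testis macrophages, 575, 374 and 364 in epididymal macrophages and 216, 199.5 and 219.5 in brain microglia. Testis values exceeded all others and brain values lay below all others, with a log2 fold of testis macrophages over microglia of 1.84 ± 0.30 (limma adjusted p = 0.000635). The fold of Atp5g3 was 0.66 ± 0.31 with the length trend removed (limma adjusted p = 0.207). Atp5g1 had 603, 351 and 640.3 in testis macrophages, 482, 624 and 429 in epididymal macrophages and 277, 365 and 331 in brain microglia, with overlap between testis and brain. Atp5g2 had 36.2, 294 and 52.1 in testis macrophages, 135, 144 and 7.55 in epididymal macrophages and 33.7, 39.0 and 162 in brain microglia, and its libraries within an organ spread more than the organs. Reads of near-identical copies and of processed pseudogenes may have been shared between genes in the authors' counting, so values of this family are uncertain.

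Of the 11 assembly factors, only Ndufaf8 passed in this comparison. Ndufaf8, known in human cells as an assembly factor of complex I, had 417, 438 and 447 in testis macrophages, 213, 187 and 248 in epididymal macrophages and 158, 157 and 158 in brain microglia. The libraries of each organ lay close together and the organs apart, at a log2 fold of testis macrophages over microglia of 1.45 ± 0.32 (limma adjusted p = 0.00734), and of 0.37 ± 0.40 with the length trend removed (limma adjusted p = 0.659). The other 10 were low, and Ndufaf1, a complex I assembly factor, was at 0 in testis libraries 1 and 2, in epididymal library 1 and in all brain libraries. Cox7a2l, which links complexes III and IV into supercomplexes and of which C57BL/6 mice are known to carry a short form, had 575, 606 and 628 in testis macrophages, 353, 269 and 248 in epididymal macrophages and 119, 94.8 and 269 in brain microglia. Its testis values stood apart from both other organs. The log2 fold over microglia was 2.05 ± 0.38 (limma adjusted p = 0.00208), and 1.35 ± 0.36 with the length trend removed (limma adjusted p = 0.0209).

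Testis against epididymal macrophages gave few calls. Of the 84 genes, 2 rose in testis macrophages (2.38%), Ndufa2 and Atp5l, and 0 fell (0 at an unadjusted p under 0.05 and 0 by edgeR and DESeq2), against 2.49% higher and 1.9% lower among all tested genes, a share near the background. For 25 of the 84 the testis libraries lay above all epididymal libraries and for 0 below, against 11% above and 8.8% below among all tested genes. The median log2 fold was 0.62, against 0.10 for all tested genes, and -0.03 with the length trend removed. The log2 fold of Atp5l was 0.87 ± 0.19 (limma adjusted p = 0.0151) and that of Ndufa2 1.06 ± 0.27 (limma adjusted p = 0.0358). With the length trend removed the fold of Atp5l was -0.04 ± 0.27 (limma adjusted p = 0.966) and that of Ndufa2 0.17 ± 0.34 (limma adjusted p = 0.868). The call of Atp5l was lost without testis library 2 or any 1 epididymal library, and that of Ndufa2 without any 1 testis or epididymal library. The count was thus 1 without testis library 1 or 3, 0 without testis library 2 or any 1 epididymal library, and 4 without brain library 2. It was 0 without the variance trend or with the length trend removed, and 5 with DESeq2. Cox6c and Atp5h did not overlap between the organs, and their log2 folds of 0.99 ± 0.29 and 1.46 ± 0.44 did not pass (limma adjusted p = 0.0751 and 0.0817).

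Epididymal macrophages against microglia gave 3 genes that rose (3.57%), Cox6b1, Cox6c and Atp5l, and 0 that fell (0 at an unadjusted p under 0.05 and 0 by edgeR and DESeq2), against 2.99% higher and 1.8% lower among all tested genes. For 17 of the 84 the epididymal libraries lay above all brain libraries and for 0 below, against 10.5% above and 11.5% below among all tested genes. The median log2 fold was 0.40, against -0.13 for all tested genes, and 0.04 with the length trend removed. Log2 folds were 1.20 ± 0.29 for Cox6c (limma adjusted p = 0.027), 0.96 ± 0.23 for Cox6b1 (limma adjusted p = 0.0259) and 0.88 ± 0.19 for Atp5l (limma adjusted p = 0.0124). With the length trend removed they were 0.83 ± 0.26, 0.47 ± 0.32 and 0.30 ± 0.27, and none passed (limma adjusted p = 0.0843, 0.531 and 0.675). The count was 1 without epididymal library 2 or brain library 1, 0 without brain library 2 and 5 without brain library 3. It was 0 without the variance trend and 6 with DESeq2. Cox6c lost the call without epididymal library 1 or 2 or brain library 1 or 2, Cox6b1 without epididymal library 3 or brain library 1 or 2, and Atp5l without epididymal library 2 or brain library 2. The comparisons share libraries, so their counts are not independent of each other.

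Over the 3 organs at once, 17 of the 84 genes differed (20.2%), against 11.4% of all tested genes (moderated F test of limma, Benjamini-Hochberg adjusted). The count was 10 without testis library 3, 11 without brain library 1, 1 without the variance trend of the limma fit and 3 with the length trend removed. The organ means of the normalised values ran testis above epididymis above brain for 51 of the 84 genes (60.7%) and for 21.3% of all tested genes. This is a description with no test, and a single high library can set such a mean. The order brain above epididymis above testis held for 4 of the 84 (4.76%) and for 19.4% of all tested genes.

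Summed over a complex, the transcripts show how much of each library the pathway took. All 76 subunits together took 92.8, 105 and 134 of every 10000 normalised reads in testis, 91.1, 70.1 and 72.0 in epididymal and 55.5, 49.7 and 68.6 in brain libraries. The organs did not overlap, and the ratio of mean shares was 1.91 for testis over brain, 1.42 for testis over epididymis and 1.34 for epididymis over brain. Without Atp5l the testis range overlapped the epididymal and the epididymal range the brain range. Complex V summed to 33.8, 36.8 and 44.1 in testis, 27.1, 25.0 and 25.4 in epididymal and 17.8, 13.4 and 20.6 in brain libraries, with no overlap between organs and a ratio of 2.22 for testis over brain. Complex IV summed to 17.6, 19.3 and 31.4 in testis, 20.6, 13.9 and 13.7 in epididymal and 9.74, 7.97 and 10.7 in brain libraries, with a ratio of 2.41 for testis over brain and overlap between testis and epididymis. Complex III summed to 7.71, 9.43 and 9.68 in testis, 7.85, 5.06 and 5.69 in epididymal and 3.71, 4.07 and 5.60 in brain libraries, with testis above brain throughout. Accessory subunits of complex I summed to 29.5, 33.2 and 42.9 in testis, 29.6, 21.6 and 21.9 in epididymal and 18.7, 19.9 and 25.9 in brain libraries, again with testis above brain and overlapping epididymis. Core subunits of complex I summed to 1.55, 2.69 and 2.41 in testis, 2.11, 1.89 and 2.76 in epididymal and 2.26, 2.19 and 2.84 in brain libraries, and complex II to 2.64, 3.28 and 3.88 in testis, 3.87, 2.80 and 2.54 in epididymal and 3.34, 2.17 and 3.00 in brain libraries, and in both the organs overlapped. These sums are descriptions with no test.

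**Figure D3:**
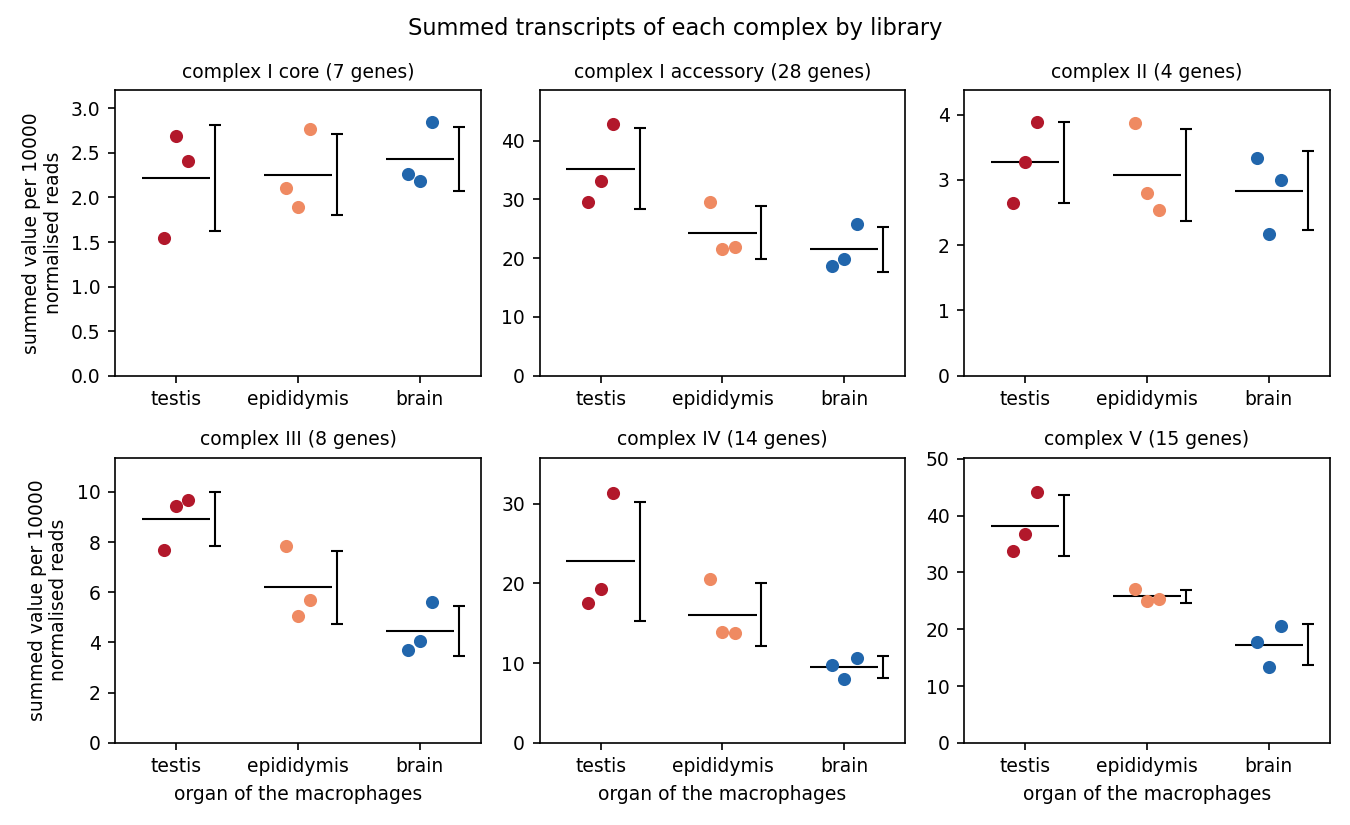
Summed value of the subunits of each complex per 10000 normalised reads, 1 point per library, with the mean of the 3 libraries as a line and the SD as a bar. Testis libraries lie above brain libraries in complex I accessory subunits, complex III, complex IV and complex V, and the organs overlap in complex I core subunits and complex II.

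Libraries of 1 organ differed in groups of short genes. Atp5j, coupling factor 6 of the ATP synthase, had 29.0, 105 and 1879 in testis macrophages, 432, 57.2 and 87.3 in epididymal macrophages and 98.4, 61.3 and 143 in brain microglia. Testis library 3 and epididymal library 1 stood far above the others of their organ. Cox7c, a small complex IV subunit, had 135, 259 and 1349.9 in testis macrophages, 692, 122 and 127 in epididymal macrophages and 199, 81.4 and 232 in brain microglia, with the same libraries on top. Ndufa1, a small membrane-arm subunit, had 516, 534 and 2233 in testis macrophages, 959, 367 and 241 in epididymal macrophages and 216, 227 and 368 in brain microglia, and its log2 fold of testis macrophages over microglia of 1.69 ± 0.54 did not pass (limma adjusted p = 0.0572). Other genes fell to 3 reads or fewer in 1 library while another library of the organ had 50 or more. This held for 10 of the 84 tested genes in testis, 7 in epididymis and 1 in brain, against 11.1%, 13.9% and 4.14% of all tested genes. Among them were Uqcrb, a complex III subunit, at 0, 224 and 379 in testis macrophages, and Atp5c1, the gamma subunit, at 103, 79.1 and 0 in microglia.

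By length of the longest annotated transcript, all tested genes showed a graded difference between the organs. For testis macrophages over microglia the median log2 fold of all tested genes was 1.60 under 600 bases, 1.11 from 600 to 1000, 0.46 from 1000 to 2000, -0.08 from 2000 to 4000 and -0.26 over 4000 bases. The oxidative phosphorylation genes had medians of 1.55, 1.15, 1.11, 0.40 and 0.67 in these classes, with 7, 29, 26, 17 and 5 genes. By longest transcript, the medians of the oxidative phosphorylation genes under 1000 bases were thus close to those of all genes of their length. Above 1000 bases they were higher, with no test of the difference. By principal transcript, the length used in the correction, their medians were 1.49 under 600 and 0.98 from 600 to 1000 bases, against 1.61 and 0.73. In the class under 600 bases, 61.1% of them were called higher, against 35.4% of all tested genes. For testis over epididymal macrophages the oxidative phosphorylation genes had 0.99, 0.64, 0.67, 0.48 and 0.02, against 0.89, 0.75, 0.46, 0.12 and -0.05 for all tested genes. For epididymal macrophages over microglia they had 0.74, 0.44, 0.40, -0.27 and 0.65, against 0.74, 0.30, 0.04, -0.17 and -0.17. The part of length in the calls was not tested.

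**Figure D4:**
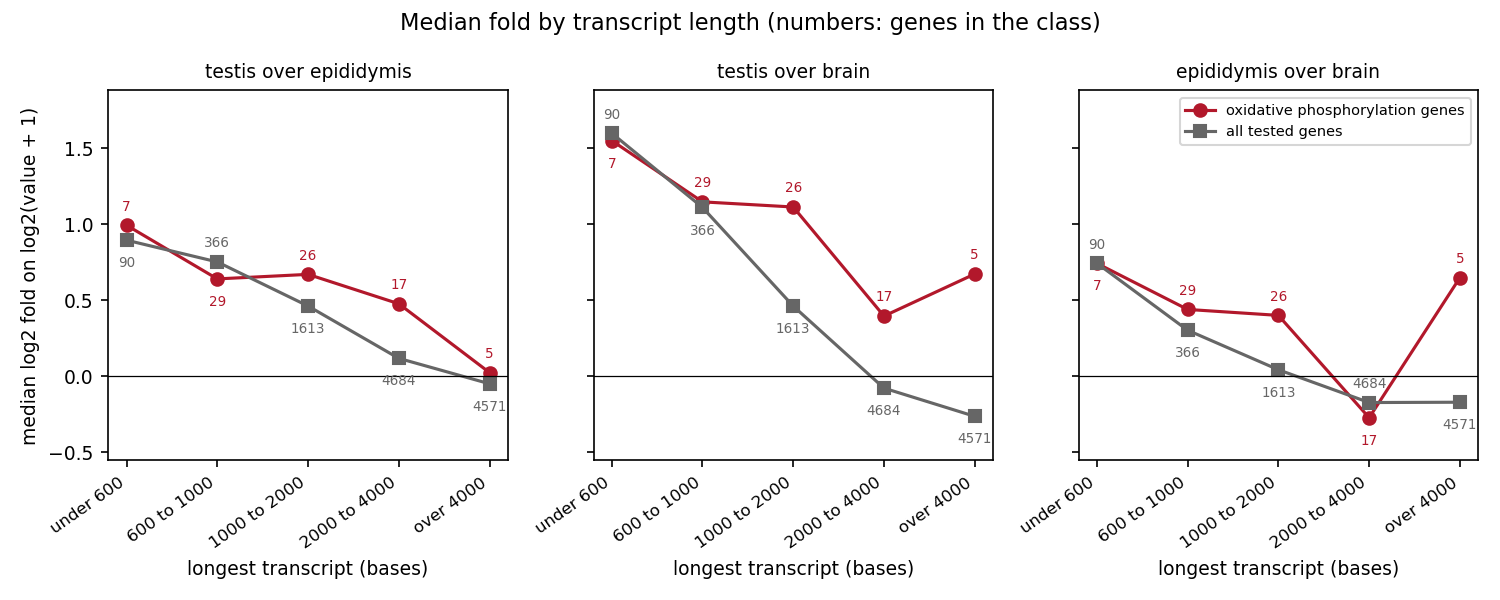
Median log2 fold on log2(value + 1) by the length of the longest annotated transcript, for the oxidative phosphorylation genes (red circles) and for all tested genes (grey squares), with the number of genes beside each point. In testis over brain the median of all tested genes runs between 1.60 under 600 bases and -0.26 over 4000 bases.

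**Figure D5:**
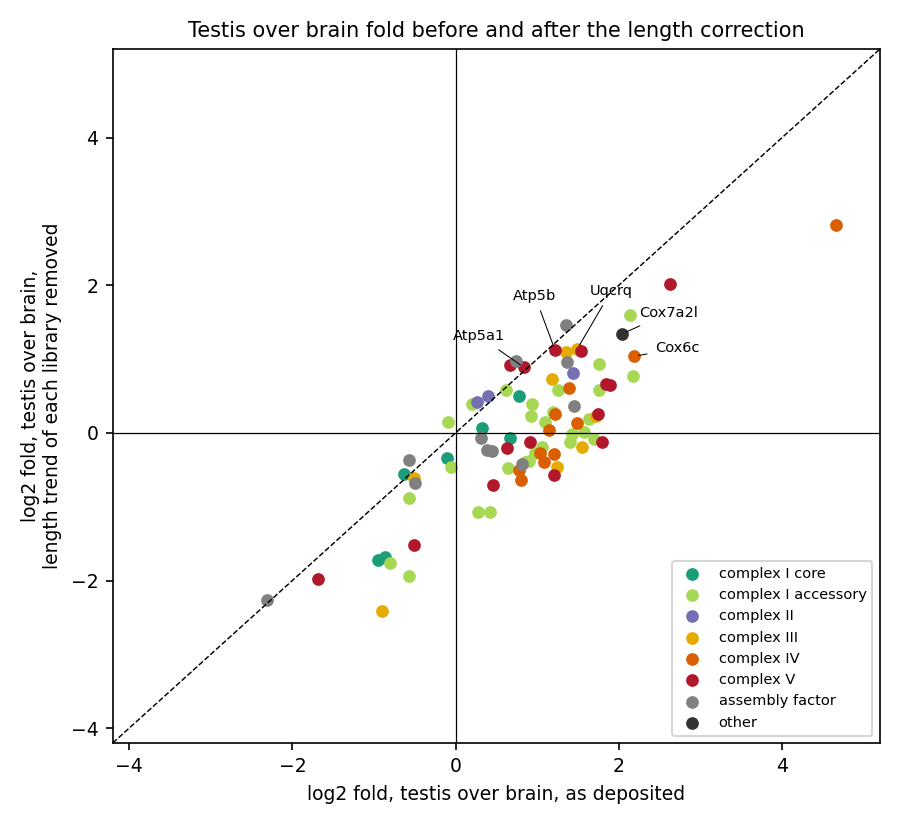
Log2 fold of testis macrophages over brain microglia of each tested oxidative phosphorylation gene as deposited (x axis) and with the length trend of each library removed (y axis), coloured by complex, with the line of equality dashed. Most points lie below the line, and the 5 genes called after the correction are named.

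Other genes of the pathway and its surroundings were read from gene lists. Of 12 mitochondrially encoded subunits 0 passed by limma, edgeR or DESeq2 in testis macrophages against microglia, where 3 had an unadjusted p under 0.05 and the median log2 fold was 0.29, and they summed, per 10000 normalised reads, to 48.4, 54.4 and 76.9 in testis, 55.7, 53.7 and 47.3 in epididymal and 52.1, 54.3 and 42.1 in brain libraries, with overlap between organs. Without COX2 and ATP6 the sums were 48.4, 45.6 and 57.1 in testis, 55.6, 45.2 and 47.3 in epididymal and 48.5, 50.1 and 39.3 in brain libraries. Against epididymal macrophages edgeR called 1 of the 12 higher in testis macrophages and limma 0. Of 10 subunits and carriers outside the prefixes, Gpd2 and Atpif1 rose. Gpd2, the mitochondrial glycerol 3-phosphate dehydrogenase, had 283, 212 and 144 in testis macrophages, 39.1, 52.5 and 89.5 in epididymal macrophages and 16.4, 14.5 and 29.3 in brain microglia, with a log2 fold over microglia of 3.36 ± 0.75 (limma adjusted p = 0.0078). Atpif1, the inhibitor of ATP synthase hydrolysis, had 755, 799 and 1593 in testis macrophages, 1036, 386 and 382 in epididymal macrophages and 234, 314 and 455 in brain microglia, with a log2 fold over microglia of 1.61 ± 0.41 (limma adjusted p = 0.0166). Of 34 assembly factors outside the prefixes, only Higd1a, a protein of the inner membrane induced by hypoxia, rose, at 1.41 ± 0.30 over microglia and 1.15 ± 0.30 over epididymal macrophages (limma adjusted p = 0.00634 and 0.0444). With edgeR or with the length trend removed 0 of the 34 were called higher over epididymal macrophages, and 1 over microglia. Of the 10 subunits and carriers, 1 was called higher over microglia with the length trend removed.

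By limma, 0 of 15 genes of the tricarboxylic acid cycle and 0 of 16 regulators of mitochondrial biogenesis passed in any of the 3 comparisons, and 0 by edgeR or DESeq2. At an unadjusted p under 0.05 each list had 1 gene in testis macrophages against microglia and 0 in the other comparisons, with median log2 folds of testis macrophages over microglia of -0.20 and -0.68. Of 67 tested genes of the mitochondrial ribosome, 1 rose against microglia, Mrpl14, at 1.51 ± 0.45 (limma adjusted p = 0.0395), and the median was 0.58. With edgeR or with the length trend removed 0 of the 67 were called in that comparison. Mrpl37 was lower in testis than in epididymal macrophages, at -2.20 ± 0.52 (limma adjusted p = 0.0263), and higher in epididymal macrophages than in microglia, at 2.08 ± 0.52 (limma adjusted p = 0.0313). Of 18 tested glycolytic genes, 3 rose and 2 fell in testis macrophages against microglia, where 6.82% of all tested genes rose and 4.83% fell. The 19 glycolytic genes of the table summed to 17.3 ± 0.656 per 10000 normalised reads in testis, 25.1 ± 1.01 in epididymal and 30.1 ± 3.84 in brain libraries (SD, n = 3 each). Every testis library lay below every other, and the ratio of mean shares was 0.57 for testis over brain, a description with no test. On normalised values the list summed to means of 6140 in testis, 7930 in epididymal and 9131 in brain libraries. Hk2 alone held 1811, 4640 and 6097 of these. Over microglia the median log2 fold of the 18 tested genes was 0.60, with 13 folds positive and 5 negative, so the sum does not describe most of the list. Hk1, a hexokinase that binds mitochondria, had 691, 481 and 610.4 in testis macrophages, 130.0, 120.1 and 62.5 in epididymal macrophages and 215, 249.7 and 188 in brain microglia, with a log2 fold over microglia of 1.44 ± 0.38 (limma adjusted p = 0.0209). Hk2, the inducible hexokinase, had 2175, 1547 and 1709.8 in testis macrophages, 4264, 3979.8 and 5676 in epididymal macrophages and 5954, 5533 and 6803 in brain microglia. It was lower in every testis library than in any other, at -1.76 ± 0.20 against microglia (limma adjusted p = 1.97e-05). Aldoc and Gpi1 also rose, at 5.80 ± 1.57 and 1.33 ± 0.34 (limma adjusted p = 0.0244 and 0.0188), and Ldhb, a lactate dehydrogenase subunit, fell by 4.90 ± 1.23 on the log2 scale (limma adjusted p = 0.0166). Aldoc had 43.5, 66.2 and 57.3 in testis macrophages and 0 in all brain libraries, so the size of its fold depends on the added 1. Ldhb had 0, 36.4 and 145 in testis macrophages and 502, 504 and 578 in microglia, and its fold rests in part on testis library 1 at 0. Of 26 genes of mitochondrial import and carriers, Tomm7 and Tomm20 of the outer membrane import complex and Ucp2, an inner membrane carrier, rose against microglia, at 1.85 ± 0.23, 1.23 ± 0.31 and 1.69 ± 0.24 (limma adjusted p = 5.93e-05, 0.0166 and 0.000234). Of 15 genes of mitochondrial protection and quality control, Hspe1, a mitochondrial co-chaperonin, and Glrx2, a glutaredoxin, rose against microglia, at 1.52 ± 0.23 and 1.11 ± 0.22 (limma adjusted p = 0.000382 and 0.00305). Both were also higher in testis than in epididymal macrophages, at 0.95 ± 0.23 and 0.91 ± 0.22 (limma adjusted p = 0.0298 and 0.0266), and with the length trend removed none of the 15 was called higher there. Prdx5, a mitochondrial peroxiredoxin, was lower in testis than in epididymal macrophages at -1.30 ± 0.30 (limma adjusted p = 0.0229).

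Other gene groups also differed between the organs, not all in the order of the oxidative phosphorylation genes. Genes of the cytosolic ribosome, with a median principal transcript of 857.5 bases, rose in 66 of 82 cases in testis macrophages against microglia and in 45 of 82 with the length trend removed, while 0 fell in either. Against epididymal macrophages 47 of 82 rose in testis macrophages, and 10 with the length trend removed. In epididymal macrophages against microglia 35 of 82 rose, and 19 with the length trend removed. Rps16 had log2 folds of 1.52 ± 0.23 and 2.96 ± 0.23 in testis over epididymis and over brain (limma adjusted p = 0.00137 and 7.09e-07). The ribosomal genes summed to 997 to 1117 per 10000 in testis, 484 to 588 in epididymal and 218 to 299.8 in brain libraries. Among 22 tested genes known as immediate early genes or induced by tissue dissociation, testis macrophages had 17 risen against epididymal macrophages and 12 against microglia, with Ier2 at log2 folds of 2.40 ± 0.51 and 2.11 ± 0.51 (limma adjusted p = 0.0135 and 0.0124). In epididymal macrophages against microglia 1 of them rose, Ier3, and 5 fell, Egr1, Jund, Jun, Klf2 and Klf4. Markers of some other cell types moved with the organs too. Those of Sertoli cells, oligodendrocytes, B cells and erythroid cells overlapped between all organs per 10000 normalised reads. Endothelial markers (4 genes) summed to 0.455 to 1.05 in testis, 0.384 to 0.803 in epididymal and 1.07 to 1.65 in brain libraries. Monocyte markers (7 genes) summed to 8.71 to 12.02 per 10000 in testis, 0.448 to 0.715 in epididymal and 0.526 to 0.686 in brain libraries. Leydig cell markers (7 genes) summed to 3.97 to 10.5 in testis, 0.091 to 0.643 in epididymal and 0.249 to 0.336 in brain libraries. Of these, Cyp17a1, Hsd3b1 and Hsd3b6 were at 0 in all epididymal and brain libraries, and none in all testis libraries. Male germ cell markers (13 genes, among them Cox6b2 and Cox7b2) summed to 3.83 to 7.36, 2.60 to 3.71 and 1.05 to 1.11 in the same order, and 3 of them were at 0 in all epididymal and 7 in all brain libraries, Prm1 and Tnp2 among the 7. T and NK cell markers (7 genes) summed to 1.35 to 2.59, 0.207 to 0.543 and 0.247 to 0.506. Muscle markers (7 genes, Cox6a2 and Cox7a1 among them) summed to 0.615 to 0.837, 0.0944 to 0.382 and 0.088 to 0.139, and epididymal epithelium markers (9 genes) to 0 to 0.117, 1.37 to 1.96 and 0 to 0.028, with 7 of the 9 at 0 in all testis and 8 in all brain libraries. Neutrophil markers (6 genes) were lowest in testis and highest in brain, at 0 to 0.0264, 0.165 to 0.333 and 1.23 to 2.42. Astrocyte markers (5 genes) summed to 0.36 to 0.453, 0.0135 to 0.46 and 1.47 to 1.74, and the genes were split. In testis macrophages against microglia Aldoc and Aldh1l1 were called higher and Slc1a3 and Aqp4 lower. The 3 tested muscle markers were split too, with 2 positive folds of testis macrophages over microglia and 1 negative. The part of these groups in the values of the oxidative phosphorylation genes was not tested.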

How the data were processed

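RNA libraries were prepared from 10 ng of RNA with a TruSeq kit (v2) that does not mark strand, per the labels' protocols. The signal values deposited by the authors are reads per gene divided by 1 factor per library. Per the submitters' processing notes, the tools were CASAVA 1.8, Bowtie2 2.2.1, Partek 6.6 and DESeq2, and the genome was mm10. No source used here gives their roles, the counting rule or the annotation. Values divided by the smallest step of their library came out whole in 100% of cases (tolerance 1e-06, largest deviation 3.93e-10 reads), which gave back the reads. Libraries held 2727092 to 4458688 reads.

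Values were tested as log2(value + 1) for the 11766 genes with at least 10 in at least 3 libraries. limma 3.58.1 in R 4.3.3 fitted 1 mean per organ over the 9 libraries, with a variance trend (6 residual and 9.08 prior degrees of freedom) and Benjamini-Hochberg adjustment per contrast over all tested genes, called at 0.05. A fold on this scale understates the change of low genes. edgeR 4.0.16 and DESeq2 1.42.0 were run on the recovered reads as alternatives. Of the oxidative phosphorylation genes they called 1 and 5 in testis over epididymis, 21 and 26 in testis over brain, and 3 and 6 in epididymis over brain. Other pseudocounts, filters, scalings, fits of only the organs compared, and fits without each library were also run. The procedure was tested on simulated data.

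Lengths and coordinates are from GENCODE M21 on GRCm38, matched by symbol for 14671 genes of the table. The length correction subtracted from each library a loess curve (span 0.3) of its deviations on log10 principal transcript length. Replicates were numbered in the order of the sample list, and no numbers pair libraries across organs. The genes, lists and tests were chosen with earlier results of these data known. Named were the subunit with the highest mean of each complex, up to 3 called genes with the largest non-overlapping folds per complex, comparison and direction, complex II, the isoform families, called assembly factors, and up to 3 called genes per list, comparison and direction. A gene of the table is not reported here by name. A few others (Ndufv1, Ndufs8, Ndufa3, Ndufa7, Ndufb11, Uqcrb, Uqcrc1, Uqcrfs1, Cox7c, Ndufa1, Ndufaf1, Atp5a1, Atp5b, Atp5c1, Atp5d, Atp5e, Atp5j and Atp5s) were added after their values were seen.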

Additional observations from a re-analysis of the deposited data

How the results depend on the processing

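No paired analysis was possible because the labels give no replicate numbers that link libraries of different organs. Counts of called oxidative phosphorylation genes depended on the processing. In testis over epididymis, 2 were called, 1 without the filter on low values, after rescaling to the same total or with edgeR, 0 after quantile normalization or without the variance trend, and 5 with DESeq2. In testis over brain the count of 23 became 8 without the variance trend, 17 after rescaling to the same total and 20 without the filter on low values. It became 25 with a minimum value of 50 and 26 with a pseudocount of 5. In epididymis over brain the count of 3 became 5 with a minimum value of 50, 0 without the variance trend, 1 with only those organs fitted and 6 with DESeq2. The F test count of 17 became 1 without the variance trend. Leaving out each library in turn gave 0 to 4, 15 to 25 and 0 to 5 calls in these comparisons, and 10 to 17 in the F test. Median log2 folds then ranged over 0.50 to 0.91, 0.81 to 1.31 and 0.20 to 0.57, the highest values of the first 2 without testis library 1.

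Chosen after seeing the data were a fit without testis library 1 and epididymal library 3, the length correction, and other scales and left-out libraries for the sums. That fit gave 0 calls in testis over epididymis, 1 in epididymis over brain, and a median of 1.31 in testis over brain. The length correction gave 0, 5, 0 and 3 (F test) calls, with medians of -0.027, 0.0033 and 0.038. It turned the fold of Atp5l over epididymis to -0.043, and over brain those of Atp5k to -0.13, Cox8a to -0.39, Ndufa2 to -0.0083, Uqcr11 to -0.47, Atp5e to -0.57 and Ndufa7 to -0.13. Folds that were not called turned too, among them those over brain of Cox6a1 and Cox7a2, at -0.63 and -0.50 against 0.81 and 0.78. By construction it removes what genes of a length share. Rescaling to the same total moved the median of all tested genes to -0.30 in testis over brain, against -0.07, and to -0.05 in testis over epididymis, against 0.10. The ratio of summed shares of the subunits ranged over 1.27 to 1.56, 1.71 to 2.10 and 1.23 to 1.48 with libraries left out, and was 1.60, 2.24 and 1.40 on normalised values. Genes near 0 reads in some libraries are limited by depth.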
